A study of Mus musculus with 20 samples.

Results

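The transcripts of red blood cells were followed in brain RNA through 5 genes, the alpha hemoglobins *Hba-a1* and *Hba-a2*, the beta hemoglobins *Hbb-bs* and *Hbb-bt*, and *Alas2*, the erythroid enzyme of heme synthesis. They were chosen by name from the 17211 genes of the deposited table, and all 5 were found there. The table holds polyA RNA-Seq of the brains of 10 *Winnie* mice, a missense mutant of the mucin gene *Muc2* with spontaneous chronic colitis, and 10 C57BL/6 mice, each group having 5 mice labelled female and 5 labelled male. All mice were 14 weeks old and came from 1 breeding colony, with no treatment named before euthanasia. The labels and methods name the removal and freezing of the brains but no flushing of the vessels.

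Hemoglobin carries oxygen as a tetramer of alpha and beta chains, each holding a heme. Precursors of red cells in the bone marrow fill up with hemoglobin mRNA, and the reticulocytes they release keep part of it after the nucleus is lost. *Alas2* encodes the erythroid form of the first enzyme of heme synthesis, whereas other cells use *Alas1*. In RNA from whole tissue, hemoglobin mRNA can come from blood left in the vessels, and low hemoglobin expression has also been described in neurons.

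The values are CPM, in which the reads of a gene are expressed per 1000000 reads of its sample. The libraries held 16540303 to 23923769 reads, so that 1 read was worth 0.0418 to 0.0605 CPM. The sample labels end in an S number, from 1 to 10 in C57BL/6 and from 11 to 20 in *Winnie* samples. The labels do not say what it stands for, and anything that follows this numbering cannot be told apart from genotype. *Xist*, the RNA of the inactive X chromosome, and *Ddx3y*, on the Y chromosome, went against the sex label in 9 of 10 C57BL/6 samples (replicate 4 was the exception) and in 0 of 10 *Winnie* samples. No sample was moved to another group, and labelled sex was compared among *Winnie* samples alone.

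The hemoglobin genes lie in pairs in the GRCm38 genome. *Hba-a1* (ENSMUSG00000069919, chr11:32283511-32284465, plus strand) and *Hba-a2* (ENSMUSG00000069917, chr11:32296489-32297298, plus strand) each have 3 exons and a mature transcript of 699 and 554 bases. *Hbb-bs* (ENSMUSG00000052305, chr7:103826534-103828096, minus strand) and *Hbb-bt* (ENSMUSG00000073940, chr7:103812524-103813996, minus strand) each have 3 exons too, with mature transcripts of 628 and 703 bases. *Alas2* (ENSMUSG00000025270, chrX:150547375-150570638, plus strand) has 11 exons, a mature transcript of 2037 bases, and overlaps *Apex2* and *Mir3620*.

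Within each pair the coding sequences are nearly the same. *Hba-a1* and *Hba-a2* share 425 of 426 coding bases, and *Hbb-bs* and *Hbb-bt* share 440 of 441. Of all stretches of 100 bases, the length of a read, 56.5% of those in *Hba-a1* also occur in *Hba-a2* and 74.5% of those in *Hba-a2* occur in *Hba-a1*. For *Hbb-bs* and *Hbb-bt* the shares were 62.6% and 54.8%, while no such stretch was common to *Hba-a1* and *Hbb-bs*. How the counting treated reads that fit both copies is not given in the sources used here, so the division of reads within a pair is uncertain. If such reads were left out, the hemoglobin levels and their sums would be too low, and ratios between the members would shift. *Alas2* is the member without a near-identical copy among the 5.

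The sequence just before the start of 1 alpha gene, 1 beta gene and *Alas2*, which sit on 3 chromosomes, is shown as a description. Capitals mark a CACCC or CCAAT motif on either strand, a TATA motif (TATAAA or TATAAG, on the strand of the gene) or a GATA motif (AGATAA or AGATAG or TGATAA or TGATAG, on either strand). The sequences are from RefSeq on GRCm38.p6, written along the strand of the gene and without bases that GENCODE places in an exon. The start is that of RefSeq, and the *Hbb-bs* stretch lies inside the GENCODE gene given above.
Hba-a2 (chr11:32296392-32296488, plus strand): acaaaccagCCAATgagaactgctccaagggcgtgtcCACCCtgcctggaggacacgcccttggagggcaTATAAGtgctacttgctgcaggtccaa
Hbb-bs (chr7:103827929-103828011, minus strand): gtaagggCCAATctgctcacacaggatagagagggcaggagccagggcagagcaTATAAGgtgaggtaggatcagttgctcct
Alas2 (chrX:150547317-150547374, plus strand): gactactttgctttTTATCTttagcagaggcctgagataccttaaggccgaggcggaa

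In the full 100 bases before the RefSeq start, the 4 hemoglobin genes all held CACCC and CCAAT motifs and a TATA motif. The CACCC of *Hbb-bs* lies 90 to 86 bases before that start, outside the printed stretch. *Alas2* held a GATA motif, printed above on its reverse strand as TTATCT, and CACCC on the reverse strand in 3 places, none of them in the printed stretch, with neither CCAAT nor TATA. Of 32851 promoters in the same table, 27.2% held CACCC in these 100 bases, 18.9% CCAAT, 5.72% TATA and 10.4% GATA. In the 300 bases around the start, *Hba-a1* and *Hba-a2* shared an unbroken run of 297 bases, and *Hbb-bs* and *Hbb-bt* a longest run of 14 bases. These matches describe letters and show no binding.

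*Hbb-bs* had the highest counted level of the members and *Alas2* the lowest, once levels were divided by GENCODE transcript length. On the scale of CPM per kb of mature transcript, the mean level over 20 brains was 87.5 ± 26.9 (SD, n = 20) for *Hbb-bs*, 56.2 ± 19.001 for *Hba-a1*, 21.4 ± 9.60 for *Hba-a2*, 2.79 ± 1.13 for *Hbb-bt* and 1.73 ± 0.615 for *Alas2*. The first 3 steps of this order held in 20 of 20 brains, and *Hbb-bt* was above *Alas2* in 19 of 20. The step from *Hbb-bs* to *Hba-a1* was a ratio of 1.14 to 2.08 within a brain, whereas the levels of both genes ranged so widely between brains that they overlapped. *Hba-a2* exceeded *Hbb-bt* 4.16- to 12.3-fold within a brain. The order depends on how reads common to both copies of a pair were counted, and on the lengths used. In each member the 100 bases before the RefSeq start end past the GENCODE start, so the lengths are uncertain. For *Hba-a1* they end at 32283671, past the GENCODE start at 32283511. For *Hbb-bs*, on the minus strand, they run from 103828028 to 103827929, wholly inside the GENCODE gene, which starts at 103828096. For *Hba-a2* they end at 32296491, near the GENCODE start at 32296489.

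*Hba-a1*, an adult alpha chain, ranged in C57BL/6 brains from 32.8 CPM through a median of 39.7 to 79.1 CPM. In *Winnie* brains it ranged from 14.2 through 37.98 to 52.2 CPM. C57BL/6 replicate 2 stood above all other brains, and 3 *Winnie* brains lay below the lowest C57BL/6 brain. *Hba-a2*, the other adult alpha chain, measured 5.35, 14.5 and 22.6 CPM (lowest, median and highest) in C57BL/6 and 3.22, 8.04 and 17.6 CPM in *Winnie* brains. For *Hba-a2*, 9 of 10 *Winnie* brains were below the C57BL/6 median and 2 were below the lowest C57BL/6 brain, so the groups overlapped.

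*Hbb-bs*, the adult beta gene with the higher count here, measured 48.6, 52.5 and 95.1 CPM (lowest, median and highest) in C57BL/6 and 21.1, 56.6 and 83.2 CPM in *Winnie* brains. The *Winnie* median was the higher of these medians, while 3 *Winnie* brains were below every C57BL/6 brain. *Hbb-bt*, the adult beta gene with the lower count, measured 1.14, 2.0025 and 4.18 CPM in C57BL/6 and 0.674, 1.64 and 3.42 CPM in *Winnie* brains, from only 13 to 82 reads. *Alas2* measured 2.20, 3.51 and 7.34 CPM in C57BL/6 and 1.40, 3.30 and 4.39 CPM in *Winnie* brains, from 27 to 144 reads. In both genes 2 *Winnie* brains lay below the lowest C57BL/6 brain and none lay above the highest. *Winnie* replicate 3 was the lowest and C57BL/6 replicate 2 the highest of the 20 brains in all 5 genes.

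**Figure D1:**
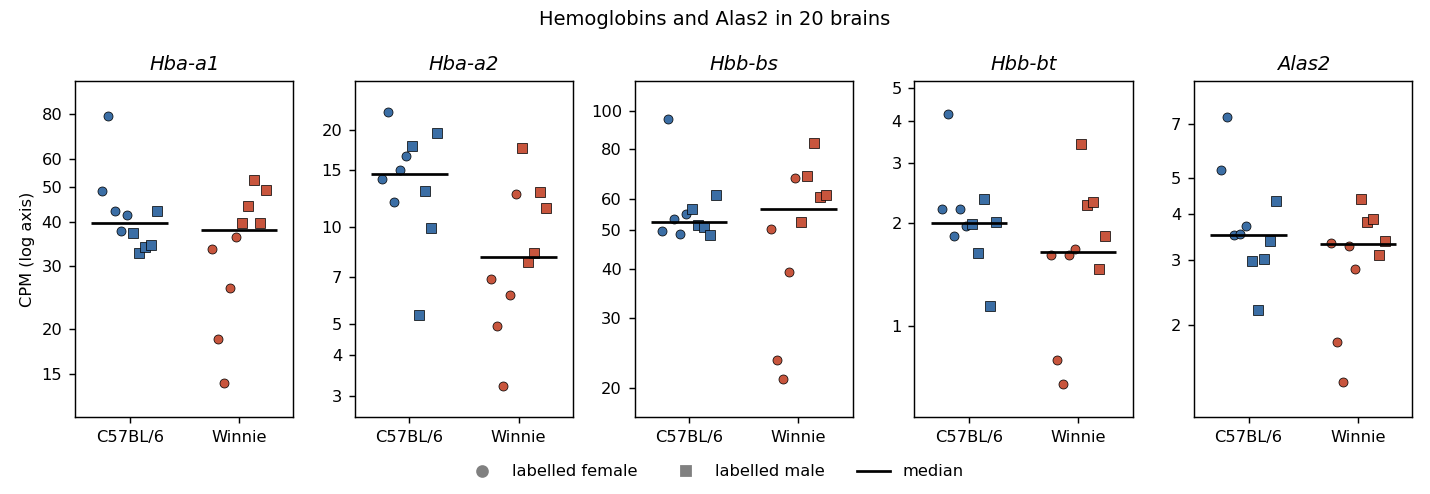
CPM of each member on a log axis for 10 C57BL/6 (blue) and 10 Winnie (red) brains, 1 point per brain, with circles for brains labelled female, squares for brains labelled male and a bar at the median of the genotype. C57BL/6 replicate 2 is at the top of every panel and Winnie replicate 3 at the bottom, and the genotypes overlap in all 5 genes.

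Together the 4 hemoglobins made up 0.00392% to 0.0201% of the counted reads, a 5.13-fold range between brains. Reads that fit both copies of a pair may be missing from these sums. Their summed level was 117 ± 31.3 CPM (SD, n = 10) in C57BL/6 and 99.1 ± 35.1 CPM (SD, n = 10) in *Winnie* brains. The lowest, median and highest sums were 91.4, 111.8 and 201.0 CPM in C57BL/6 and 39.2, 113.9 and 146.0 CPM in *Winnie* brains. The medians differed by little, and the genotypes differed at their ends. The C57BL/6 range rested on a single brain. With replicate 2 the coefficient of variation (CV, the SD as a percent of the mean) was 26.8% and the highest sum was 2.20-fold the lowest, and without it these were 10.3% and 1.37-fold. In *Winnie* brains the CV was 35.4% and the highest sum 3.72-fold the lowest, and leaving out any 1 brain gave 28.1% to 37.8% and 3.03- to 3.72-fold.

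This spread was wide against that of other brain transcripts. Over the 20 brains the CV of the CPM was 33.8% for *Hba-a1*, 44.8% for *Hba-a2*, 30.7% for *Hbb-bs*, 40.4% for *Hbb-bt* and 35.6% for *Alas2*. Among the 15168 genes with a mean of at least 1 CPM the median CV was 9.90%, and the members lay between the 97.2 and the 99.4 percentile. Random counting of the mean number of reads alone would give a CV of 3.09% for *Hbb-bs*, 3.65% for *Hba-a1*, 6.66% for *Hba-a2*, 12.2% for *Alas2* and 16.4% for *Hbb-bt*. In each gene the measured CV was more than that. In bulk brain RNA, fewer cells of a type and less RNA per cell cannot be told apart. These values thus do not separate less blood, less mRNA per reticulocyte and less hemoglobin mRNA in neurons.

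The 5 genes rose and fell together. Pearson's r between log2(CPM + 0.5) values over the 20 brains ran from 0.67 for *Hba-a2* and *Hbb-bs* to 0.93 for *Hba-a1* and *Hbb-bs*, with a permutation p, adjusted by Benjamini-Hochberg over the 10 pairs, of 0.00101 or less. The strongest pair thus joined an alpha and a beta gene on different chromosomes that have no 100-base stretch in common. The genotypes gave like values, at 0.57 to 0.93 within C57BL/6 and 0.74 to 0.96 within *Winnie* brains. *Alas2* correlated with *Hba-a1* at r = 0.89 (Spearman's rho 0.80, adjusted permutation p = 2e-04).

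Part of this agreement came from the brains at the ends of the range. Spearman's rho was between 0.43 and 0.80, and for *Hbb-bs* with *Alas2* (0.43, adjusted permutation p = 0.0601) and *Hba-a2* with *Hbb-bs* (0.45, adjusted permutation p = 0.0510) it missed 0.05. Without the 2 brains farthest from the median of the first gene, r was 0.32 to 0.86 over the 10 pairs. The relation of *Hba-a2* to *Hbb-bs* then fell to 0.32 (adjusted permutation p = 0.191) and that of *Hbb-bs* to *Alas2* to 0.46 (adjusted permutation p = 0.0629), so these pairs rested on those brains. The other 8 pairs kept an r of 0.51 or more with an adjusted permutation p of 0.0416 or less.

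**Figure D2:**
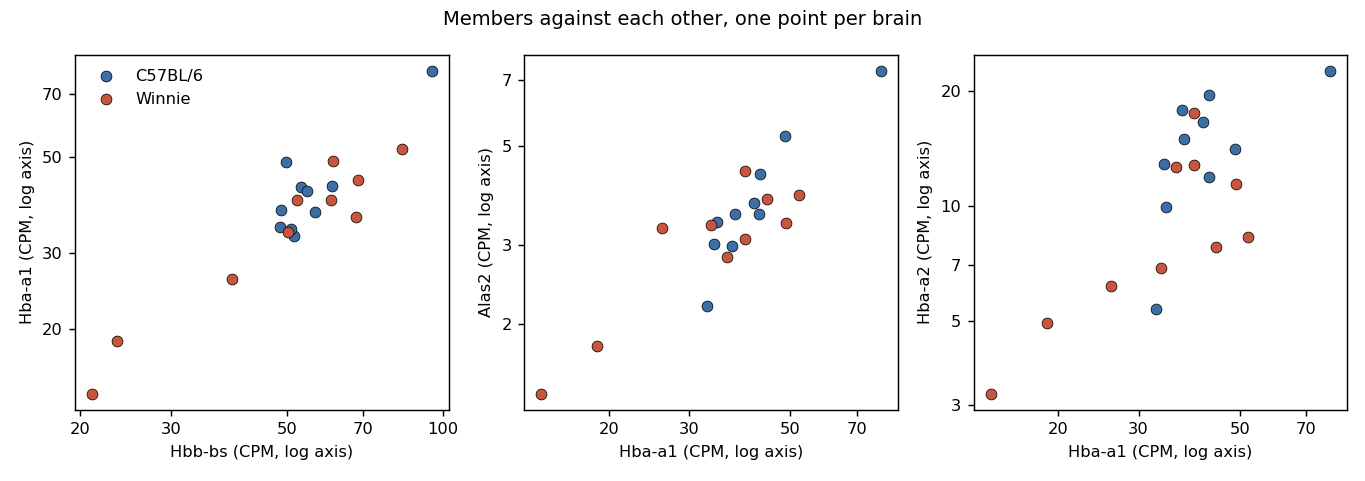
Levels of 2 members against each other on log axes in CPM, 1 point per brain (C57BL/6 blue, Winnie red), for Hba-a1 against Hbb-bs (r = 0.93), Alas2 against Hba-a1 (r = 0.89) and Hba-a2 against Hba-a1 (r = 0.76). The points of both genotypes lie along the same band in the first 2 panels and scatter more widely in the third.

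The balance between the members varied less than their levels for alpha against beta chains and for *Alas2* against hemoglobin. The alpha to beta ratio, each chain summed in CPM per kb, was 0.932 ± 0.126 (SD, n = 10) in C57BL/6 and 0.791 ± 0.117 (SD, n = 10) in *Winnie* brains, and it stayed between 0.660 and 1.15 in all 20 while the summed hemoglobins ranged 5.13-fold. *Alas2* per 100 CPM of hemoglobin was 3.31 ± 0.595 in C57BL/6 and 3.28 ± 0.671 in *Winnie* brains. The genotypes thus differed in this ratio by far less than its spread between brains. The size of both ratios also depends on how reads common to both copies of a pair were counted. That of alpha to beta depends on the uncertain transcript lengths too.

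Within the alpha pair, *Hba-a2* divided by *Hba-a1* (in CPM) was 0.341 ± 0.0963 (SD, n = 10) in C57BL/6 and 0.261 ± 0.0869 (SD, n = 10) in *Winnie* brains, with a range of 0.159 to 0.478 over the 20. Within the beta pair, *Hbb-bt* divided by *Hbb-bs* was 0.0373 ± 0.00738 in C57BL/6 and 0.0343 ± 0.0119 in *Winnie* brains. In both pairs the ranges of the genotypes overlapped. These ratios depend on how reads common to both copies were counted, and they are given without a test.

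**Figure D3:**
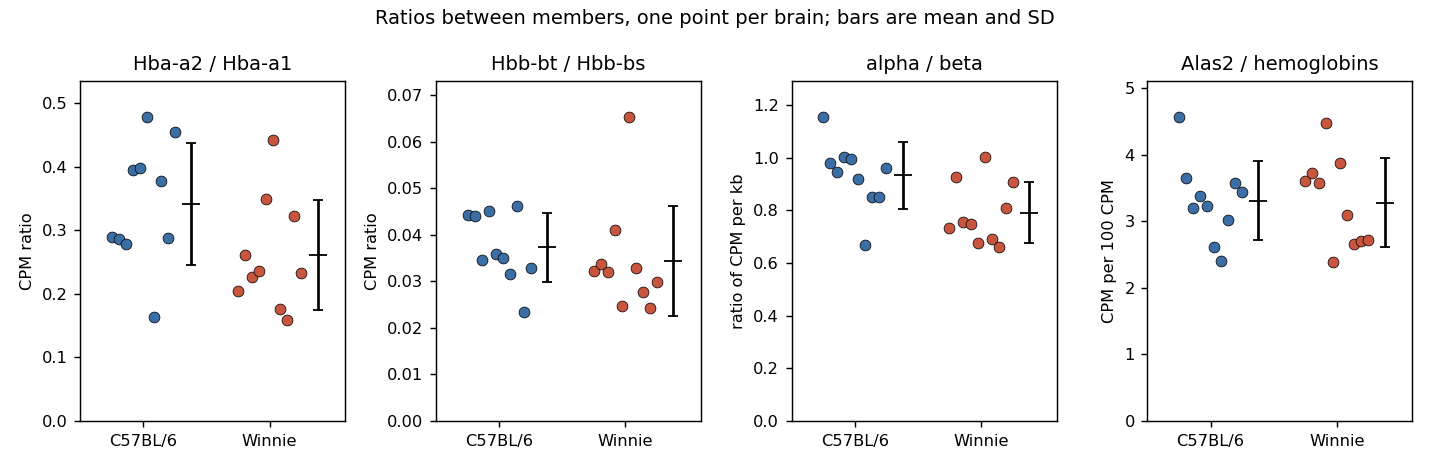
Ratios between members in each brain, with axes from 0: Hba-a2 over Hba-a1 and Hbb-bt over Hbb-bs in CPM, alpha over beta chains in CPM per kb, and Alas2 CPM per 100 CPM of the hemoglobins. Points are brains and the bars are mean and SD (n = 10 per genotype). The genotypes overlap in all 4 panels, and Winnie replicate 6 stands apart at 0.0652 in the ratio of Hbb-bt to Hbb-bs.

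*Winnie* mouse brains were compared with brains from C57BL/6 mice to ask whether the hemoglobin transcripts differ by genotype. All 5 log2 fold changes were below 0, as were 49.0% of those of all genes. The median was -0.28 for the members and 0.0022 over all genes. As the members rise and fall together, they are not 5 separate observations. None of the 5 passed a false discovery rate (FDR) of 0.05 with limma, a rule that called 434 genes, 2.52% of all tested. The unadjusted p was under 0.05 for 1 of 5 members, *Hba-a2*, with limma, edgeR and DESeq2 alike, and by limma for 17.6% of all genes. At the stricter rule of the study's methods, an FDR under 0.001 together with a 1.5-fold change, 0 members and 0 genes (0%) passed with limma. With edgeR and DESeq2 on the recovered reads, 1 and 10 genes passed it, and 0 members.

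*Hba-a2* had the largest fitted difference of the members, from 14.6 ± 4.95 CPM (SD, n = 10) in C57BL/6 to 9.17 ± 4.37 CPM (SD, n = 10) in *Winnie* brains. Its log2 fold change was -0.69 (standard error 0.279, 95% interval -1.28 to -0.11, limma FDR 0.195), with an unadjusted permutation p of 0.0242. With each brain left out in turn it was -0.83 to -0.55, and the smallest limma FDR was 0.0886. The near-identical *Hba-a1*, at 43.1 ± 13.6 and 35.4 ± 12.5 CPM, gave a log2 fold change of -0.33 (standard error 0.221, 95% interval -0.80 to 0.13, limma FDR 0.464, permutation p = 0.161).

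*Hbb-bs* had means of 57.1 ± 13.9 CPM (SD, n = 10) in C57BL/6 and 52.8 ± 19.96 CPM in *Winnie* brains. Its log2 fold change was -0.20 (95% interval -0.67 to 0.27, limma FDR 0.707, permutation p = 0.397), with 5 of 10 *Winnie* brains below the C57BL/6 median. *Hbb-bt* gave -0.26 (95% interval -0.64 to 0.13, limma FDR 0.499) and *Alas2* -0.28 (95% interval -0.65 to 0.09, limma FDR 0.431), with 7 of 10 *Winnie* brains below the C57BL/6 median in each. The intervals of *Hba-a1*, *Hbb-bs*, *Hbb-bt* and *Alas2* all included 0, and the highest upper bound was 0.27.

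With the log2 level of *Hbb-bs* as a covariate, which compares brains at the same amount of this beta chain, the log2 fold change was -0.53 for *Hba-a2* (limma FDR 0.205), -0.15 for *Hba-a1*, -0.16 for *Alas2* and -0.12 for *Hbb-bt*. Because the sex labels of C57BL/6 went against the RNA, *Ddx3y* was also used as a covariate, an alternative chosen after seeing the data. The log2 fold changes were then -0.75 for *Hba-a2* (limma FDR 0.121), -0.40 for *Hba-a1* (0.183), -0.33 for *Alas2* (0.176), -0.30 for *Hbb-bt* (0.294) and -0.25 for *Hbb-bs* (0.547). At an unadjusted p under 0.05 there were 3 of 5 members in that fit (*Hba-a1*, *Hba-a2* and *Alas2*), and 18% of all genes.

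Among the *Winnie* brains, those labelled female were lower than those labelled male in all 5 genes. *Hba-a1* measured 33.5, 18.9, 14.2, 26.1 and 36.3 CPM in the 5 labelled female (replicates 1 to 5) and 39.7, 44.3, 52.2, 39.7 and 49.0 CPM in the 5 labelled male (replicates 6 to 10). All labelled females were below all labelled males for this gene, a pattern found in 1.22% of all genes. The log2 difference was -0.86 (95% interval -1.45 to -0.28, limma FDR 0.316). The unadjusted exact permutation p was 0.00794, the smallest that 5 against 5 brains allow.

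*Alas2*, the X-linked member, measured 3.33, 1.79, 1.40, 3.27 and 2.83 CPM in the labelled female and 4.39, 3.81, 3.87, 3.10 and 3.36 CPM in the labelled male *Winnie* brains. Of the 5 labelled females 3 were below every labelled male, and the log2 difference was -0.52 (95% interval -0.89 to -0.16, limma FDR 0.299, exact permutation p = 0.0317). The summed hemoglobins measured 92.3, 48.1, 39.2, 73.1 and 118 CPM in the labelled female brains and 113, 123, 146, 115 and 124 CPM in the labelled male brains. Labelled female replicate 5 thus lay within the range of the labelled males, and replicates 2 and 3 lay lowest.

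For the remaining hemoglobins the log2 difference was -0.80 for *Hba-a2* (limma FDR 0.518, exact permutation p = 0.0476), -0.80 for *Hbb-bs* (FDR 0.479, exact permutation p = 0.0476) and -0.65 for *Hbb-bt* (FDR 0.266, exact permutation p = 0.0397). None of the 5 members passed an FDR of 0.05 in this comparison, and 20 genes did, 0.116% of all tested. At an unadjusted limma p under 0.05 there were 4 of 5 members, all but *Hba-a2*, and 9.81% of all genes. Because the members move together, they are not 5 separate observations. S numbers 11 to 15 are the labelled female and 16 to 20 the labelled male *Winnie* samples, so this numbering and labelled sex cannot be told apart.

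In C57BL/6, *Hba-a1* measured 37.8, 42.7 and 79.1 CPM (lowest, median and highest) in the 5 brains labelled female and 32.8, 34.4 and 42.8 CPM in the 5 labelled male, and *Alas2* measured 3.51, 3.72 and 7.34 CPM against 2.20, 3.02 and 4.33 CPM. The labelled sexes overlapped in both genes. As 9 of these 10 labels went against *Xist* and *Ddx3y*, the order by label cannot be read as an order by sex, and it was not tested. In the brains with *Ddx3y* at 56.0 CPM or more (replicates 1, 2, 3 and 5, all labelled female), *Hba-a1* measured 48.7, 79.1, 42.7 and 41.6 CPM. In those with *Xist* at 646 CPM or more (replicates 4 and 6 to 10), it measured 37.8, 37.3, 32.8, 34.0, 34.4 and 42.8 CPM. In the same order, *Hbb-bs* measured 49.9, 95.1, 53.3 and 54.8 CPM against 48.8, 56.7, 51.6, 51.0, 48.6 and 61.2 CPM. *Hba-a2* measured 14.1, 22.6, 11.9 and 16.6 CPM against 14.9, 17.8, 5.35, 12.9, 9.90 and 19.5 CPM. The ranges overlapped in all of these genes, and the difference was not tested.

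**Figure D4:**
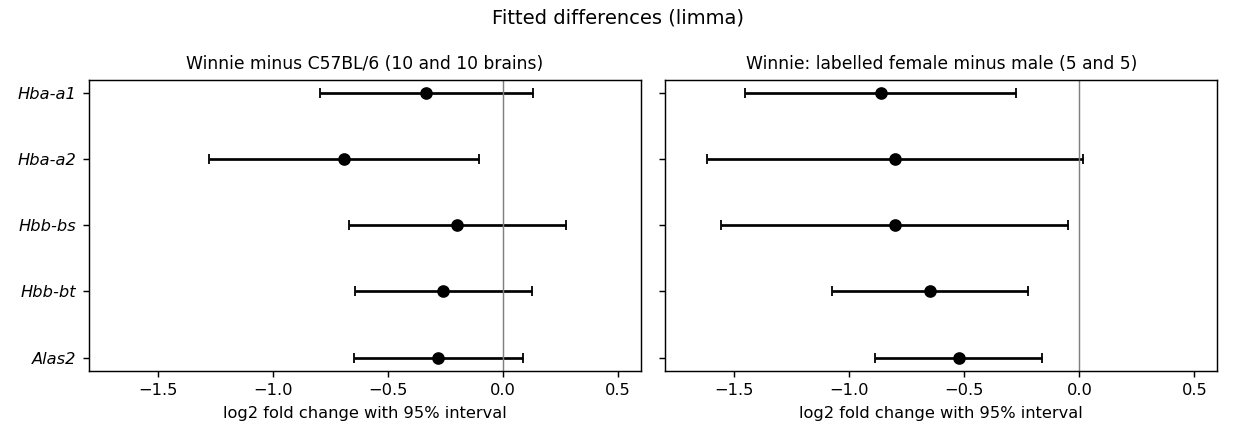
Fitted log2 fold changes of the members with 95% intervals from limma. The left panel shows Winnie minus C57BL/6 (10 and 10 brains), where the interval of Hba-a2 alone lies below 0, and the right panel labelled female minus labelled male Winnie brains (5 and 5), where all intervals except that of Hba-a2 lie below 0. No member passed an FDR of 0.05 in either panel.

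Genes outside the 5 were ranked by Pearson's r between their log2(CPM + 0.5) and the log2 of the summed hemoglobins over the 20 brains, as a description without a test, since genes of 1 library share its depth and handling. Among the 17207 genes that are not hemoglobin members, *Alas2* ranked 1, at r = 0.85 (0.87 within C57BL/6 and 0.88 within *Winnie* brains). That rank is for the 20 brains together. Within C57BL/6, *Ly6c1* (0.891) and *Ngp* (0.874), both named after their values were seen, were above *Alas2* (0.871). Within *Winnie* brains *Ten1* (0.904) was above *Alas2* (0.884). Over the 20 brains the median r of all genes was -0.0062, and 1.64% of genes reached 0.5. After *Alas2* came *RP23-309G12.2* at 0.80, *Hes5*, a Notch target of neural progenitors, at 0.76, *Gabpb1*, a subunit of an ETS transcription factor, at 0.75, and *Ten1*, a telomere protein, at 0.74. *Gm5087*, the signaling kinase *Ripk2*, the endothelial transcription factor *Sox18*, *Gm28320*, the galectin *Lgals4*, *Gm17249*, *4632427E13Rik* and the sugar transporter *Slc50a1* followed, at 0.74 to 0.70.

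Within the genotypes, *Hes5* had r = 0.25 within C57BL/6 and 0.84 within *Winnie* brains, *Ten1* 0.17 and 0.90, and *Sox18* 0.23 and 0.78, a difference that was not tested. *RP23-309G12.2*, at 0.78 and 0.88, and *Lgals4*, at 0.72 and 0.86, were alike in both, although the former was measured at a mean of only 0.877 CPM. None of the 12 was called between the genotypes, with a limma FDR of 0.326 or more.

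Other erythroid genes gave little to set beside the members. Of 17 genes largely restricted to the red cell lineage, 2 were measured here, *Tal1*, a transcription factor that endothelium also expresses, and *Ermap*, an erythroid membrane protein, and the other 15, among them the defining markers *Slc4a1* and *Klf1*, were not analysed here. Their r with the hemoglobins was 0.04 and -0.28, and their log2 fold changes were 0.03 and 0.02 (limma FDR 0.955 and 0.963). Of 16 genes whose mRNA reticulocytes hold and the brain also makes, 15 were measured, with a median r of 0.02 and none at 0.5. The 3 most abundant of them, *Tmcc2*, *Sptb* and *Ube2o*, were not called, and not every result of this list is reported here.

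Of 9 other globins, 2 were measured. *Ngb*, the neuronal globin, had a mean of 7.97 CPM and a log2 fold change of -0.05 (limma FDR 0.901), and *Cygb*, the globin of fibroblast-like cells, had 84.0 CPM and -0.04 (FDR 0.765). Their r with the hemoglobins was -0.21 and 0.10. Both values were below that of *Alas2*, which was 0.85.

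All 14 genes of heme synthesis other than *Alas2* were measured, with a median r of 0.03. *Alas1*, the enzyme used outside the red cell lineage, named after its values were seen, had r = -0.32, and *Fech*, the ferrochelatase that completes heme, had r = -0.34. *Slc25a39* and *Cpox*, among the most abundant of the list with *Fech*, had 0.12 and 0.13. *Abcb6*, a porphyrin transporter named after its values were seen, was the one gene of the list at 0.5 or more, at r = 0.59 (mean 1.33 CPM). *Tmem14c*, a mitochondrial protein of heme synthesis, was the one called gene, lower in *Winnie* brains (log2 fold change -0.23, limma FDR 0.0480, and called in 7 of 20 fits with 1 brain left out), and its r with the hemoglobins was -0.05.

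Of 12 genes of heme and hemoglobin clearance, 8 were measured and 0 called, and none reached an r of 0.5. *Hmox1*, the inducible heme oxygenase, named after its values were seen, had r = 0.22 and a log2 fold change of 0.06 (limma FDR 0.749), and *Hmox2*, the constitutive form, had r = -0.24 and a log2 fold change of -0.01 (FDR 0.944). *Lrp1*, the receptor of the heme carrier hemopexin, gave 0.15 (95% interval 0.06 to 0.24, FDR 0.0589), and *Slc48a1*, a heme transporter, gave -0.06 (FDR 0.426).

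Markers of other blood cells were sparse. Of 14 neutrophil markers 6 were measured, with 0 called, a median r of 0.43 and summed levels of 6.61 to 17.7 CPM in C57BL/6 and 8.69 to 20.6 CPM in *Winnie* brains. *Ngp* (r = 0.58) and *S100a9* (r = 0.53), granule and cytosolic proteins of neutrophils named after their values were seen, had r = 0.87 and 0.79 within C57BL/6 and 0.52 and 0.48 within *Winnie* brains, from as few as 0 reads in a brain. *Csf3r*, *Mmp9* and *Lcn2*, the most abundant of the list, had r = 0.36, 0.00060 and 0.43.

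Of 12 platelet markers 5 were measured, with 0 called, a median r of 0.25 and summed levels of 8.77 to 13.3 CPM in C57BL/6 and 9.20 to 11.4 CPM in *Winnie* brains. The platelet chemokine *Pf4*, named after its values were seen, had r = 0.58 at 4 to 13 reads. *Gp1bb*, *Itga2b* and *Gp5*, the most abundant of the list, had r = 0.25 to 0.27. Of 16 lymphocyte markers 5 were measured, with a median r of -0.04 and summed levels of 21.6 to 43.2 CPM in C57BL/6 and 18.9 to 41.3 CPM in *Winnie* brains. *Trbc2*, a T cell receptor constant gene, was called lower in *Winnie* brains (log2 fold change -0.38, limma FDR 0.0384, and called in 8 of 20 fits with 1 brain left out), and *Ighm* (-0.32, FDR 0.178) and *Cd4* (-0.33, FDR 0.783) were not. The defining T cell gene *Cd3e*, all 6 monocyte markers, and the neutrophil and platelet genes *Ly6g* and *Ppbp* were not analysed here. The part of these cells in the member values was not tested.

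All 15 endothelial markers were measured, with a median r of 0.06 and summed levels of 361 to 499 CPM in C57BL/6 and 433 to 497 CPM in *Winnie* brains. *Cldn5*, the tight junction claudin of brain endothelium, was called lower in *Winnie* brains (log2 fold change -0.47, limma FDR 0.00331) and had r = 0.60 with the hemoglobins. *Slc2a1*, the glucose transporter of the blood-brain barrier, was called higher (0.45, FDR 0.00551) and had r = -0.23. Both were called in 20 of 20 fits with 1 brain left out. *Ly6a*, named after its values were seen, had the highest r of the list, 0.68, and a log2 fold change of 0.02 (FDR 0.954), while *Flt1* and *Slco1a4* had r = -0.11 and 0.06. Within C57BL/6 and within *Winnie* brains r was 0.45 and 0.73 for *Cldn5*, 0.47 and -0.32 for *Slc2a1*, and 0.74 and 0.79 for *Ly6a*. It was 0.49 and -0.43 for *Flt1*, and 0.52 and 0.32 for *Slco1a4*. *Ly6c1*, named after its values were seen, had 0.89 and 0.65. The median of 0.06 over 20 brains thus does not stand for each genotype, and the difference was not tested.

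Of 10 mural cell markers 9 were measured, with a median r of 0.0089 and summed levels of 185 to 223 CPM in C57BL/6 and 194 to 230 CPM in *Winnie* brains. *Abcc9*, a channel subunit of pericytes, was called higher in *Winnie* brains (log2 fold change 0.29, limma FDR 0.0468, and called in 6 of 20 fits with 1 brain left out), and *Rgs5*, *Vtn* and *Pdgfrb* were not. All 9 choroid plexus markers were measured and 0 called, with a median r of -0.14. *Ttr*, the transthyretin of the choroid plexus, gave -0.22 (FDR 0.338) and r = 0.13, and *Kl* and *Prlr* had r = -0.15 and -0.29. The 12 genes of neurons and glia that served to check the tissue, among them *Mbp* and *Snap25*, summed to 11802 to 13178 CPM over the 20 brains with 0 called and a median r of 0.15. Brain transcripts were thus abundant in every sample, and the hemoglobins were at 201.0 CPM or less.

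**Figure D5:**
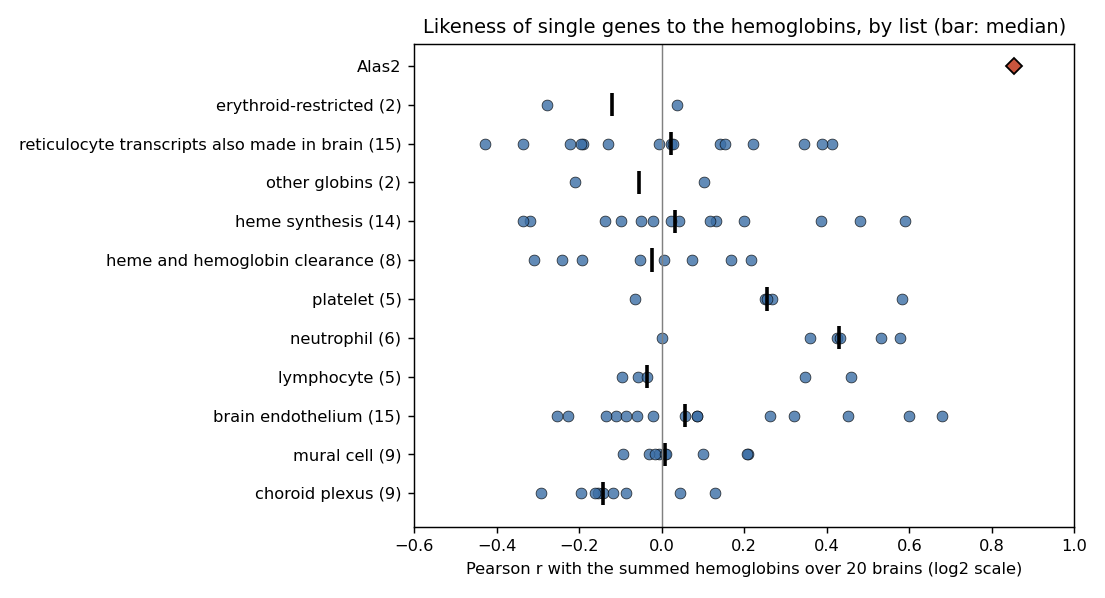
Pearson's r over 20 brains between single genes and the summed hemoglobins (log2 scale), with 1 point per measured gene, lists in rows (number of measured genes in brackets), a bar at the median of each list and Alas2 as a diamond at 0.85. The medians run from -0.14 for the choroid plexus list to 0.43 for the neutrophil list, and no gene of a list reaches Alas2 over the 20 brains. Within C57BL/6 alone, which is not drawn, Ly6c1 (0.891) and Ngp (0.874) were above Alas2 (0.871).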

How the data were processed

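Brain RNA was sequenced by the authors as paired-end reads from polyA libraries and processed with RNAsik on GRCm38, with reads counted per gene by featureCounts. The authors deposited CPM. The aligner, the strandedness and the low-count filter are not given in the sources used here. Every deposited value was a whole number of reads in 100% of cases (within 0.05 reads), and those reads were used for edgeR 4.0.16 and DESeq2 1.42.0. A value of 3 reads is at most 0.181 CPM.

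Groups follow the labels. The labels do not name litters or cultures, and each sample is described as 1 mouse. The study's methods give 8 C57BL/6 and 6 *Winnie* mice, and all 20 labelled samples were used. Genes were compared with limma 3.58.1 (R 4.3.3; trend and robust variance, log2(CPM + 0.5), which understates changes of low genes), with FDR by Benjamini-Hochberg over 17211 genes. Permutation tests were two-sided, with 100000 resamples or exact enumeration (Python 3.11.15 with pandas 2.3.3, numpy 2.4.6 and scipy 1.17.1). On simulated data for the genotype comparison with 200 of 17211 genes changed, limma found 92% of 1.5-fold and 99.5% of 2-fold changes at an FDR under 0.05, with 7 false calls in each. The changed genes were drawn at random from those with a mean of at least 1 CPM. As the CV of the members lay between the 97.2 and the 99.4 percentile, these shares cannot be carried over to the members. Annotation was GENCODE M21, which matched 17128 genes. The members and the lists (erythroid, reticulocyte, other globins, heme synthesis, heme clearance, platelet, neutrophil, lymphocyte, monocyte, endothelium, mural cell, choroid plexus, neurons and glia) were chosen with earlier results of these data known. Named are the members, the 3 most abundant and all called genes of each list, and the 12 genes most like the hemoglobins, apart from a few list genes whose results are not reported here. Genes named outside this rule are marked as such. Alternatives were other pseudocounts, removal of genes with a mean under 1 CPM, median-ratio scaling, both count tests, no robust variance, labelled sex, *Hbb-bs* or a replicate block in the fit, and each sample left out. *Ddx3y* as a covariate, CPM without the members' reads and median-ratio scaling of the sex comparison were added after seeing the data.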

Additional observations from a re-analysis of the deposited data

Results flagged for a closer look

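In C57BL/6, replicate 2 stood apart from the other 9 brains by Dixon's criterion in *Hba-a1* (79.1 CPM, next highest 48.7 CPM), *Hbb-bs* (95.1 CPM, next 61.2 CPM), *Hbb-bt* (4.18 CPM, next 2.36 CPM) and the summed hemoglobins (201.0 CPM, next 125.5 CPM). Among the *Winnie* brains, replicate 6 stood apart in the ratio of *Hbb-bt* to *Hbb-bs*, at 0.0652 with a next highest of 0.0410. Of 32 groups of values checked 5 stood out, chance gives about 1 in 20, and the hemoglobins of 1 brain are not separate observations.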

How the results depend on the processing

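No member passed an FDR of 0.05 in any of the 12 alternatives of the genotype comparison, the 3 of the sex comparison or with any 1 sample left out, and every log2 fold change of a member kept its direction (159 and 65 refitted values). Over the alternatives, *Hba-a2* was -0.75 to -0.53 between the genotypes, with a smallest FDR of 0.110.

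The number of genes at an FDR under 0.05 between the genotypes was 434, 968 with DESeq2 and 227 with the replicate block. With 1 sample left out it was 169 to 694, and it moved by over 1.5 times without C57BL/6 replicate 3 (238), 5 (169), 8 (250), 9 (270) or 10 (694), or *Winnie* replicate 2 (264), 3 (241), 7 (256) or 8 (216). The cause was not tested. In the sex comparison it was 20, and 12 to 67 with 1 sample left out, with 67 without *Winnie* replicate 1, 12 without replicate 2 or 4 and 43 without replicate 10. The hemoglobin CV in C57BL/6 was 10.3% to 28.5%, and the highest over the lowest sum 1.37 to 2.20, the lower values without replicate 2. For *Winnie* brains they were 28.1% to 37.8% and 3.03 to 3.72.

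With the replicate block *Hba-a2* stayed at -0.69 (limma FDR 0.232). The pairing by number was checked on deviations from the genotype mean of each gene, over genes with a mean of at least 1 CPM. These deviations correlated at -0.34 to 0.17 between same-numbered samples, with 2 of 10 pairs over 0.1. By them 0 C57BL/6 samples were closest to their own number, so same-numbered samples share only a number. The calls of *Tmem14c*, *Trbc2* and *Abcc9* were lost with the block (FDR 0.0681 to 0.0934) and held in 9, 10 and 9 of the 12 alternatives. Besides the block, *Trbc2* was lost with *Hbb-bs* as a covariate (limma FDR 0.0527). The calls of *Cldn5* and *Slc2a1* held in all 12 alternatives. With 13 to 82 reads, *Hbb-bt* is the member that depth limits most.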
